A study of Mus musculus with 14 samples.

Results

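Glycolysis splits glucose into pyruvate in the cytosol and yields ATP without oxygen, and mouse embryonic stem cells run it at a high rate. Its enzymes are housekeeping proteins with abundant mRNAs, and *Gapdh*, which encodes the enzyme that oxidises glyceraldehyde 3-phosphate, is widely used as the reference gene for RT-qPCR, including in this study. m6A is a methyl mark on adenosine in mRNA, written by the METTL3 and METTL14 complex mostly at GGAC, and in these cells it is known for shortening the life of many regulatory transcripts. The 10 genes described here are *Hk2*, *Gpi1*, *Pfkl*, *Aldoa*, *Tpi1*, *Gapdh*, *Pgam1*, *Eno1*, *Pkm* and *Ldha*, out of 52459 genes in the count tables. They were chosen by their place in the pathway after the measured counts of *Gapdh* in these libraries were known, and *Gapdh* was selected on those counts, so the values that follow are a description and carry no test. All 10 had a mean of at least 1 FPKM (counts per kilobase of exon, scaled to the library total) over the 6 libraries, as did 11327 genes in all, which serve as the background.

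The cells were E14Tg2a mouse embryonic stem cells, grown in serum and LIF on gelatin. WT cells were compared with METTL14 R255K cells, in which CRISPR-Cas9 knock-in put a lysine in place of 1 arginine of METTL14, and which were isolated as single colonies. Both genotypes received actinomycin D at 5 µg/ml, which blocks transcription, and polyadenylated RNA was sequenced at 0, 4 and 8 h from 1 library per genotype and time. m6A was mapped in untreated cells by MeRIP-seq, in which RNA fragments pulled down with an m6A antibody are sequenced beside their input, from 2 pull-down and 2 input libraries per genotype, deposited as 1 peak list per genotype. The 6 libraries of the time course held between 13812160 and 18813640 counts, of which the 10 genes took between 0.822% and 1.35%. Because there is 1 library per genotype and time, no difference has a replicate check, and the 95% intervals given cover counting error only. No added RNA standard was used for scaling, so CPM, the counts scaled to a fixed library total, compare a transcript with the rest of its own library. In these bulk samples fewer cells and less RNA per cell cannot be told apart. All 7 embryonic stem cell markers examined were above 1 FPKM. The 5 fibroblast markers summed to between 1.66 and 2.21 FPKM in WT and between 5.96 and 7.19 FPKM in R255K libraries, and none of the 5 was at 0 in all libraries of a genotype. The 4 endoderm markers summed to between 0.324 and 5.37 FPKM in WT and between 0.365 and 5.16 FPKM in R255K libraries, and the 3 neural markers to between 115 and 121 FPKM and between 139 and 172 FPKM. Nearly all of the neural sum was *Tubb3*, while *Sox1* was lower in R255K cells, with 13.4 FPKM in WT and 1.76 FPKM in R255K cells at 0 h. The endoderm markers went both ways at 0 h. R255K cells held 0.518 times the WT level of *Gata4*, 0.800 of *Gata6*, 1.94 of *Sox17* and 5.76 of *Foxa2* (12 and 62 counts). Of the fibroblast markers at 0 h, *Col1a1* had 9 counts in WT and 150 in R255K cells, *Col1a2* 3 and 76, *Col3a1* 0 and 11, *Thy1* 81 and 188, and *Dcn* 2 and 2. What these values contribute to the differences between genotypes was not tested.

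The members differ in how far their sequence is their own. To show this, the 30 bases in the middle of the longest coding exon of 4 members are printed from the mm10 genome, 5′ to 3′ on the strand of the gene, in lower case throughout because no base is singled out. *Gapdh* and *Pgam1* are shown because most of their transcript occurs elsewhere, *Eno1* because part of it does, and *Hk2* because none of it does.
Gapdh, chr6:125163273-125163302, minus strand: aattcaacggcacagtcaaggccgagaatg
Pgam1, chr19:41915728-41915757, plus strand: atgagcgacactatggcggtctgacaggtc
Eno1, chr4:150245212-150245241, plus strand: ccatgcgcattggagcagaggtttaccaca
Hk2, chr6:82736668-82736697, minus strand: gggcccgccagaagaccctggagtctctga
The *Gapdh* stretch occurred without a mismatch at 56 places of the genome, that of *Eno1* at 4, that of *Pgam1* at 2, and that of *Hk2* at 1, its own.

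Over whole spliced transcripts *Gapdh* was again at one end and *Hk2* at the other. Of all 100-base windows of the *Gapdh* mRNA, 93.7% also occurred without a mismatch outside the gene, and so did 90.0% of those of *Pgam1* and 59.0% of those of *Eno1*. The share was 12.5% for *Pkm*, 7.69% for *Tpi1*, 6.54% for *Gpi1* and 1.28% for *Ldha*, and 0 for *Hk2*, *Pfkl* and *Aldoa*. *Gapdh* had 48 places outside the gene that matched at least 100 bases of its mRNA, part of its coding sequence included, at 95% identity or more, while no other member had more than 3. In the number of copies *Gapdh* thus stands apart from *Pgam1*, and in the share of its sequence that is copied the 2 genes are close.

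*Gapdh* (chromosome 6, 125161715 to 125166467) was the weakest and the least even of the 10 genes. It had 995 counts in WT cells at 0 h, 242 at 4 h and 2357 at 8 h. In R255K cells it had 331 counts at 0 h, 787 at 4 h and 1875 at 8 h. Scaled to the library, these were 57.1, 16.2 and 171 CPM in WT cells. The R255K libraries had 21.2, 42.3 and 99.7 CPM. The WT series thus went down and then up, while the R255K series went up at each step, and the order of the genotypes turned from each time to the next. The highest of the 6 values was 10.6 times the lowest.

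Between 0 and 4 h in WT cells *Gapdh* was lower by a ratio of 0.283 (95% interval 0.245 to 0.326), and between 4 and 8 h it was higher by a ratio of 10.6 (9.25 to 12.1). In WT cells 10 of the 11327 genes, 0.0883%, were at least 2-fold lower at 4 h and then at least 2-fold higher at 8 h. *Gapdh* was the one with the most counts. The pattern was taken from *Gapdh* itself, so this share is a description and no test. The R255K ratios were 2.00 from 0 to 4 h (1.76 to 2.28), which unrounded was just under 2-fold, and 2.36 from 4 to 8 h (2.17 to 2.56). R255K cells had 0.371 times the WT level at 0 h (0.326 to 0.420), 2.62 times at 4 h (2.27 to 3.04) and 0.584 times at 8 h (0.549 to 0.621). These intervals cover counting error only and not the spread between libraries. *Gapdh* was selected on these values, and what lies behind the jumps was not tested.

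**Figure D1:**
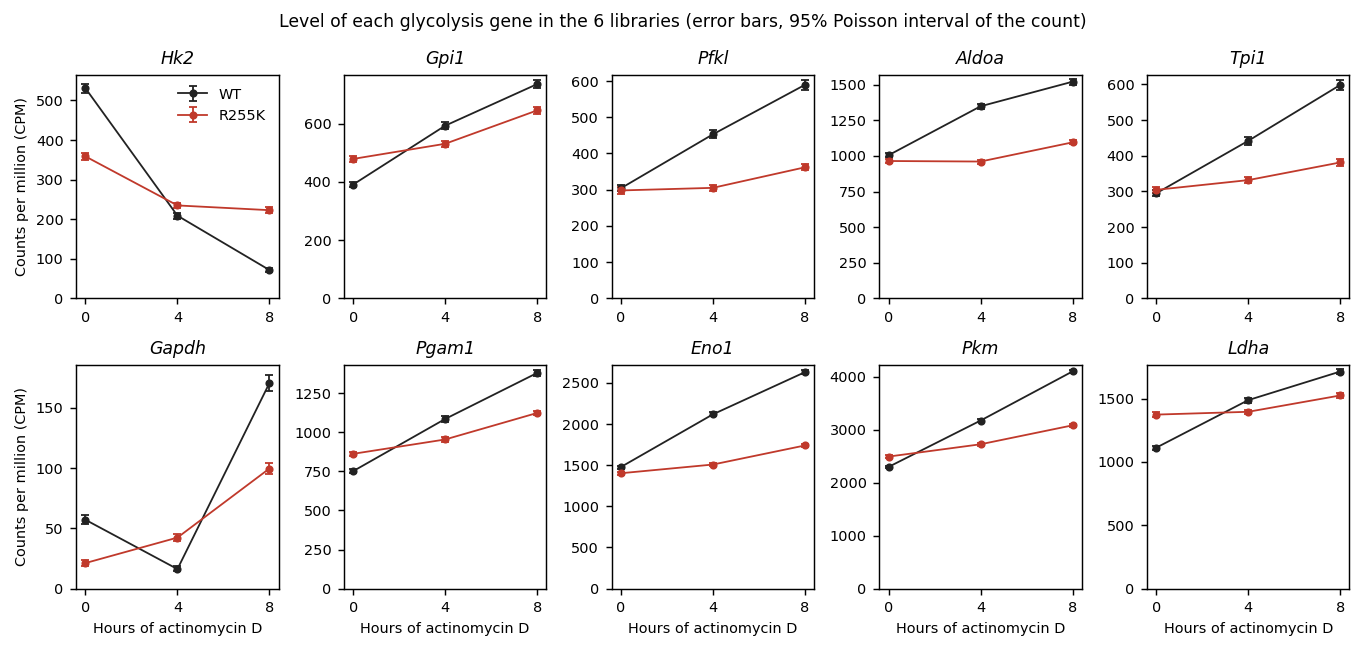
CPM of each of the 10 genes (y axis, from 0, own scale per gene) against hours of actinomycin D (x axis) in WT (black) and R255K (red) libraries, 1 library per point, with bars for the 95% Poisson interval of the count. *Gapdh* goes from 57.1 to 16.2 to 171 CPM in WT cells, *Hk2* goes down in both genotypes, and the other 8 genes go up from 0 to 8 h, more in WT than in R255K cells, with *Aldoa* flat over the first 4 h in R255K cells (965 and 961 CPM).

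The other 9 genes had no such jump. *Pkm*, which makes pyruvate, was the most abundant per kilobase in each library, with a mean of 596 FPKM over the 6 libraries, and *Pgam1*, a phosphoglycerate mutase, followed with 561 FPKM. *Ldha*, which reduces pyruvate to lactate, had a mean of 434 FPKM, *Eno1* (enolase) 337 FPKM and *Aldoa* (aldolase) 306 FPKM. *Tpi1*, the triose phosphate isomerase, had 142 FPKM, *Gpi1*, the glucose 6-phosphate isomerase, 87.2 FPKM, *Pfkl*, a subunit of phosphofructokinase, 57.7 FPKM and the hexokinase *Hk2* 45.4 FPKM. The mean of *Gapdh* was 16.4 FPKM, and it was the lowest of the 10 in 5 of the 6 libraries. Only at 8 h in WT cells was another member, *Hk2* with 12.0 FPKM, below *Gapdh* with 41.3 FPKM. The FPKM of *Gapdh* rests on 4133 bp of annotated exons, where the mRNA compared with the genome has 1273 bases.

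In the upper part of the pathway, *Gpi1* (chromosome 7) had 391, 593 and 736 CPM in the WT libraries of 0, 4 and 8 h, and 479, 531 and 646 CPM in the R255K libraries. *Pfkl* (chromosome 10) had 304, 453 and 589 CPM in WT cells against 298, 305 and 362 CPM in R255K cells. *Aldoa* (chromosome 7) had 1005, 1349 and 1521 CPM in WT cells and 965, 961 and 1096 CPM in R255K cells. Every step in WT cells was upwards, while the first step in R255K cells was nearly flat for *Pfkl* and *Aldoa*. *Tpi1* (chromosome 6) had 295, 442 and 598 CPM in WT cells and 304, 332 and 381 CPM in R255K cells, which made it the member besides *Gapdh* with the largest WT ratio.

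The enzymes after *Gapdh* also went up from 0 to 8 h in both genotypes. *Pgam1* (chromosome 19) had 752, 1086 and 1381 CPM in WT cells and 863, 955 and 1125 CPM in R255K cells. *Eno1* (chromosome 4) had 1477, 2117 and 2630 CPM in WT cells and 1402, 1507 and 1739 CPM in R255K cells. The *Eno1* genotypes were close at 0 h and far apart at 8 h. *Pkm* (chromosome 9) had 2297, 3172 and 4101 CPM in WT cells and 2493, 2725 and 3083 CPM in R255K cells. *Ldha* (chromosome 7) had 1113, 1489 and 1715 CPM in WT cells and 1374, 1397 and 1526 CPM in R255K cells, so that it began higher and ended lower in R255K cells.

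Over 8 h of actinomycin D, these 8 genes were between 1.51 and 2.03 times their starting level in WT cells, where the median of all genes was 0.734 times. In R255K cells they were between 1.11 and 1.35 times, against a median of 0.959 times. Relative to the median gene, which no choice of scaling alters, they were between 2.06 and 2.77 times higher in WT and between 1.16 and 1.41 times in R255K cells. None of their intervals reached 1 at 8 h, yet only *Tpi1* in WT cells passed 2-fold, with 2.03 (1.96 to 2.10). *Pfkl*, with 1.94 (1.87 to 2.01), and *Gpi1*, with 1.88 (1.83 to 1.94), lay just below that mark.

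*Hk2* (chromosome 6, 82725025 to 82774454), which phosphorylates glucose at the entry of the pathway, went the other way. WT cells held 9251, 3130 and 988 counts of it at 0, 4 and 8 h, or 531, 209 and 71.5 CPM. In R255K cells it had 5609, 4366 and 4191 counts, or 359, 235 and 223 CPM. The WT level was thus the highest of the 6 at 0 h and the lowest at 8 h, and the R255K level hardly moved after 4 h. At 8 h the ratio to 0 h was 0.135 for WT cells (0.126 to 0.144) and 0.621 for R255K cells (0.597 to 0.647), so that the R255K ratio was 4.61 times the WT ratio (4.27 to 4.98). R255K cells had 0.676 times the WT level of *Hk2* at 0 h (0.653 to 0.698), 1.12 times at 4 h (1.07 to 1.18) and 3.11 times at 8 h (2.90 to 3.34). The direction at 4 h turned with TMM factors (0.962) and with DESeq2 size factors (0.931). With the latter the genotype ratio at 8 h was 2.05 and the WT ratio of 8 h over 0 h was 0.219.

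A rate of loss was taken as the mean of 2 slopes on the natural log scale of FPKM, from 0 to 4 h and from 0 to 8 h, and the half-life is ln 2 over that rate. The half-life of *Hk2* came to 2.87 h for WT cells and 8.38 h for R255K cells. From 0 and 8 h alone it was 2.77 h and 11.6 h, and with TMM factors 3.42 h and 9.11 h. For *Gapdh* the same formula gave 7.75 h in WT cells (13.8 h with TMM factors) and no half-life in R255K cells, and from 0 and 8 h alone no half-life in either genotype. The other 8 members had rates below 0 in both genotypes and so no half-life, because their share of the library grew.

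Counted over all members, 9 of 60 ratios between times of a genotype were past 2-fold. From 0 to 4 h in WT cells 0 of 10 members were at least 2-fold higher (1.88% of all genes) and 2 were at least 2-fold lower, *Hk2* and *Gapdh* (24.2%). From 4 to 8 h 1 was higher, *Gapdh* (0.556% of all genes), and 1 was lower, *Hk2* (22.7%). From 0 to 8 h 2 were higher, *Tpi1* and *Gapdh* (6.47%), and 1 was lower, *Hk2* (39.2%). With TMM factors the latter background was 24.3% higher and 31.3% lower, and 9 members were at least 2-fold higher.

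In R255K cells the only member past 2-fold was *Gapdh*. From 0 to 4 h 0 of 10 members were past 2-fold in either direction, against 3.26% of all genes higher and 11.0% lower. From 4 to 8 h 1 was higher (0.291% of all genes) and 0 were lower (3.29%). From 0 to 8 h 1 was higher (2.24%) and 0 were lower (19.3%). With TMM and with DESeq2 factors *Gapdh* was also past 2-fold from 0 to 4 h.

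**Figure D2:**
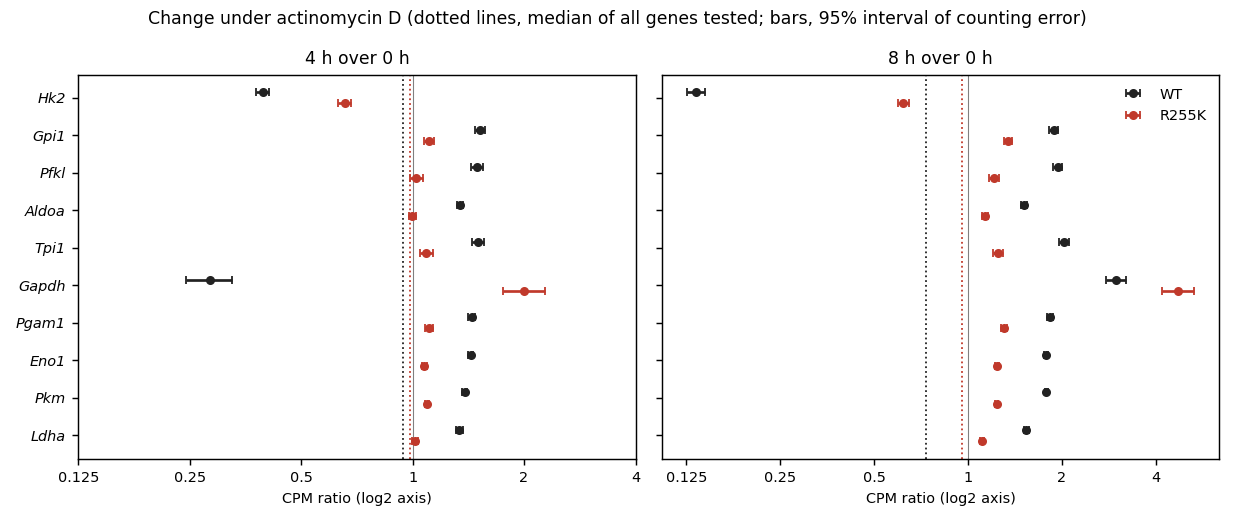
CPM ratios (x axis, log2 scale) of 4 h over 0 h and 8 h over 0 h for the 10 genes (y axis, in pathway order) in WT (black) and R255K (red) cells, with bars for the 95% interval of counting error and dotted lines for the median of all genes tested. At 8 h the 8 genes other than *Hk2* and *Gapdh* lie between 1.51 and 2.03 in WT and between 1.11 and 1.35 in R255K cells, *Hk2* lies at 0.135 and 0.621, and *Gapdh* is the point farthest to the right in both.

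Between genotypes, 3 of 30 ratios were past 2-fold, 2 of them of *Gapdh*. At 0 h 0 of 10 members were at least 2-fold higher in R255K cells (9.85% of all genes) and 1 was lower, *Gapdh* (8.85%). At 4 h 1 was higher, again *Gapdh* (19.7%), and 0 were lower (3.90%). At 8 h 1 was higher, *Hk2* (33.3%), and 0 were lower (3.96%). With TMM factors the background at 8 h was 22.6% higher and 11.2% lower, and *Pfkl*, *Tpi1*, *Gapdh* and *Eno1* were then at least 2-fold lower.

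Short of 2-fold, the 8 genes other than *Hk2* and *Gapdh* were ordered alike by genotype after treatment. They had between 0.949 and 1.24 times the WT level in R255K cells at 0 h, between 0.674 and 0.938 times at 4 h and between 0.614 and 0.890 times at 8 h. All 8 were lower in R255K than in WT cells at 4 and at 8 h, under each scaling tried, while the median of all genes was 1.15 and 1.37 times the WT level. The R255K ratio of 8 h over 0 h, divided by the WT ratio, lay between 0.617 for *Tpi1* and 0.750 for *Aldoa*, where the median of all genes was 1.28. *Hk2* was the 1 member of 10 for which this quotient reached 2, as it did for 30.5% of all genes. The quotient of *Gapdh* was 1.58 at 8 h (1.37 to 1.81) and 7.07 at 4 h (5.84 to 8.55).

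Set beside the median ratio of the other 9 members, the ratio of *Gapdh* was 0.197 times as large from 0 to 4 h and 8.51 times as large from 4 to 8 h in WT cells. In R255K cells it was 1.86 and 2.05 times as large for the same steps. Between genotypes it was 0.359 times as large at 0 h, 3.05 times at 4 h and 0.777 times at 8 h. In all 9 comparisons of times and genotypes the ratio of *Gapdh* lay outside the range of the other 9 members. *Gapdh* was selected on these counts, so this is a description. Between genotypes at 8 h, its interval (0.549 to 0.621) overlapped that of *Pfkl* (0.614, 0.594 to 0.634).

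The same jumps enter any value expressed per *Gapdh* count. Per *Gapdh* count, the 8 genes other than *Hk2* and *Gapdh* would be between 4.73 and 5.36 times higher at 4 h than at 0 h in WT cells. They would be between 0.107 and 0.128 times as high at 8 h as at 4 h. Against WT cells, R255K cells would have between 2.56 and 3.33 times their level at 0 h and between 0.257 and 0.358 times at 4 h. *Actb*, another common reference gene, had a CPM ratio between 1.02 and 1.32 in the 6 comparisons of times and would have 4.18 per *Gapdh* count from 0 to 4 h in WT cells. These quotients concern sequencing counts, and RT-qPCR was not analysed here.

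Annotated genes that hold a copy of the *Gapdh* coding sequence took far more counts than *Gapdh* itself. There were 323 of them in the count tables, at least 50% covered by such a copy at 80% identity or more, 147 with any count and 26 with at least 100 counts over the 6 libraries. Together they held 8443, 9486 and 11253 counts in the WT libraries of 0, 4 and 8 h, and 7213, 10388 and 11740 counts in the R255K libraries. That made up between 82.7% and 97.5% of the counts on *Gapdh* and its copies, with the highest share in the WT library at 4 h, where *Gapdh* was lowest. *Gm5559* on chromosome 5 alone held 49.2% of the copy counts, with 4258, 4724 and 5460 counts in the WT and 3765, 4888 and 5684 counts in the R255K libraries. Neither *Gm5559* nor the sum had the dip and jump of *Gapdh*.

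The summed copies had 484, 633 and 815 CPM in WT cells and 461, 559 and 624 CPM in R255K cells. Their ratio of 8 h over 0 h was 1.68 in WT (1.63 to 1.73) and 1.35 in R255K cells (1.31 to 1.39). That was within the range of the 8 members other than *Hk2* and *Gapdh* in WT cells and just above it in R255K cells. Of the 26 copies with at least 100 counts, 25 had a WT ratio of 8 h over 0 h above 1, and 19 were at least 2-fold higher (6.47% of all genes), with a median of 2.32. That median is above the range of those 8 members, and the lower ratio of the sum follows the copies with the most counts, *Gm5559* and *Gm7336*. Of the same 26 copies, 1 was at least 2-fold lower at 4 h than at 0 h in WT cells (24.2% of all genes). The sum of *Gapdh* and its copies, chosen after the data were seen, had 542, 649 and 985 CPM in WT and 482, 601 and 724 CPM in R255K cells. By that sum the WT ratios were 1.20 from 0 to 4 h, 1.52 from 4 to 8 h and 1.82 from 0 to 8 h, and the R255K ratios were 1.25 from 0 to 4 h and 1.20 from 4 to 8 h. R255K cells had 0.891, 0.925 and 0.734 times the WT level at 0, 4 and 8 h. The authors kept what they call unique reads, and how reads were divided between *Gapdh* and its copies was not tested.

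**Figure D3:**
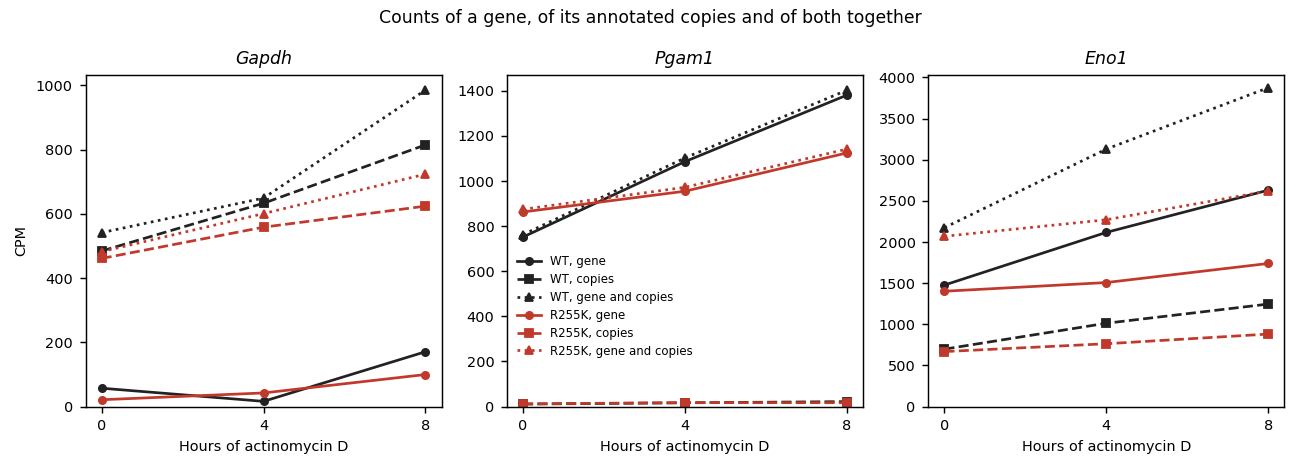
CPM (y axis, from 0, own scale per panel) of *Gapdh*, *Pgam1* and *Eno1* (solid), of their annotated copies (dashed) and of both together (dotted) against hours of actinomycin D (x axis), in WT (black) and R255K (red) cells, 1 library per point. The copies lie far above *Gapdh*, with 484 to 815 CPM in WT cells, near 0 for *Pgam1*, and below the gene for *Eno1*.

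*Pgam1* and *Eno1* are the comparison for this. The copies of *Pgam1* held between 1.35% and 1.78% of the counts on gene and copies, though 90.0% of its windows occur elsewhere. The copies of *Eno1* held between 32.1% and 33.6% in the 6 libraries, mostly *Eno1b*, with 9788, 12007 and 13740 counts in WT and 8476, 11335 and 13170 counts in R255K cells. Summed with their copies, *Pgam1* had a WT ratio of 8 h over 0 h of 1.84 and *Eno1* of 1.78, which rounded are those of the genes alone. For the 5 other members with an annotated copy, the copies held at most 1.91% of the counts in any library.

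No other member was among the 5 genes most correlated with *Gapdh* over the 6 libraries, which hold the counts it was selected on. Across these 6 points, the Pearson correlation of log2 CPM with *Gapdh* was between 0.336 and 0.514 for the 8 members other than *Hk2*, and −0.535 for *Hk2*. The points share their depth with every other gene of the library. By this correlation the 8 members ranked from 470 to 1800 of 11326 genes. The genes most like *Gapdh* were *Gm14046* (r = 0.928), *Sycp3* (0.912), *Fam133b* (0.898), *Gm2260* (0.881) and *Hist1h2ab* (0.862), over 6 libraries each. Of these, *Gm14046* and *Hist1h2ab* had at most 16 counts in a library, and the levels of *Fam133b* spanned 1.37-fold, against 10.6-fold for *Gapdh*.

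The m6A peaks on these genes were mostly of low enrichment. To show what lies under them, the GGAC nearest the summit, within 100 bases on the strand of the gene, is printed with its surroundings from mm10 for 1 peak each of 6 members, with GGAC in capitals.
Hk2, 3′ UTR, chr6:82727233-82727257, minus strand: atgaggagatGGACctcttggcatt
Gpi1, 3′ UTR, chr7:34202295-34202319, minus strand: tagttggcctGGACtacaaggctgt
Pfkl, coding, chr10:78009658-78009682, minus strand: tggctaccgtGGACctggagaaact
Tpi1, 3′ UTR, chr6:124811220-124811244, minus strand: tgcatagcatGGACtaggttgccca
Pkm, coding, chr9:59670602-59670626, plus strand: agcaggatgtGGACatggtgtttgc
Eno1, 3′ UTR, chr4:150248551-150248575, plus strand: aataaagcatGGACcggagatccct
Of the members' peaks, 6 of 7 in WT and 11 of 11 in R255K cells had a GGAC in this 201-base window. Among all exonic summits searched the shares were 79.4% and 82.9%, and on the opposite strand 46.1% and 47.5%. Such a match describes the sequence and does not locate the mark.

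Of the 10 members, 5 had an exonic peak in the WT list (55.8% of all genes tested) and 6 in the R255K list (43.0%). *Gapdh*, *Aldoa* and *Ldha* had none in either list. The WT list held 7 peaks on members and the R255K list 11, while over the whole lists the numbers were 17693 and 9437. The fold enrichment of pull-down over input had a median of 3.28 over the 7 WT peaks, against 6.17 over all exonic WT peaks, and all 7 were below that median. Over the 11 R255K peaks it was 2.49, against 5.50 over all exonic R255K peaks, and 10 of the 11 were below. The depth behind the peak lists is unknown.

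*Hk2* carried 3 m6A peaks in each genotype, the most of any member in the WT list and as many as *Pkm* in the R255K list. Its WT peak at chr6:82726732-82727444, with its summit in the 3′ UTR, reached 4.88-fold enrichment at a −log10 q of 90.9. For the R255K peak over it the values were 3.90 and 38.6. A second 3′ UTR peak at chr6:82725222-82726535 had 3.83 in WT and 2.52 in R255K cells. The third, in the 5′ UTR at chr6:82774169-82774445, had 4.14 in WT and 2.58 in R255K cells. All 3 were thus lower in the R255K list, by ratios of 0.800, 0.658 and 0.624 in that order, without a replicate behind any of them.

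The other shared peaks lay on *Gpi1*, *Pfkl* and *Pkm*. *Gpi1* had a peak in its 3′ UTR, at chr7:34202158-34202632, with a fold enrichment of 3.11 in WT and 2.44 in R255K cells. *Pfkl* had a peak in coding sequence, at chr10:78009522-78009736, with 3.28 in WT and 4.77 in R255K cells. *Pkm* had a coding peak at chr9:59670377-59670834 with 1.36 in WT cells, at a −log10 q of 1.75, and 1.66 in R255K cells. So enrichment was higher in the R255K list for *Pfkl* and *Pkm* and lower for *Gpi1*. In all, 6 of the 7 WT peaks were overlapped by an R255K peak, as were 52.1% of all exonic WT peaks.

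The remaining peaks on members had no counterpart in the other genotype. Only *Tpi1* had a WT peak with no R255K peak over it, in the 3′ UTR at chr6:124810984-124811404, with a fold enrichment of 1.96. The R255K list had 5 peaks with no WT peak over them, and the share over all exonic R255K peaks was not computed. These 5 lay on *Pkm* (2 peaks, 2.14 in coding sequence and 2.11 in the 3′ UTR), *Pgam1* (2.49, in coding sequence) and *Eno1* (2 peaks). Of the pair on *Eno1*, 1 lay in the 3′ UTR with 1.51, and the other, with 6.17, touched an exon while its summit lay in an intron. At a fold enrichment of at least 4, each list held 2 peaks on members, of 7 in WT and 11 in R255K cells. Over the whole lists, 14318 of 17693 WT peaks and 6847 of 9437 R255K peaks reached that value.

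**Figure D4:**
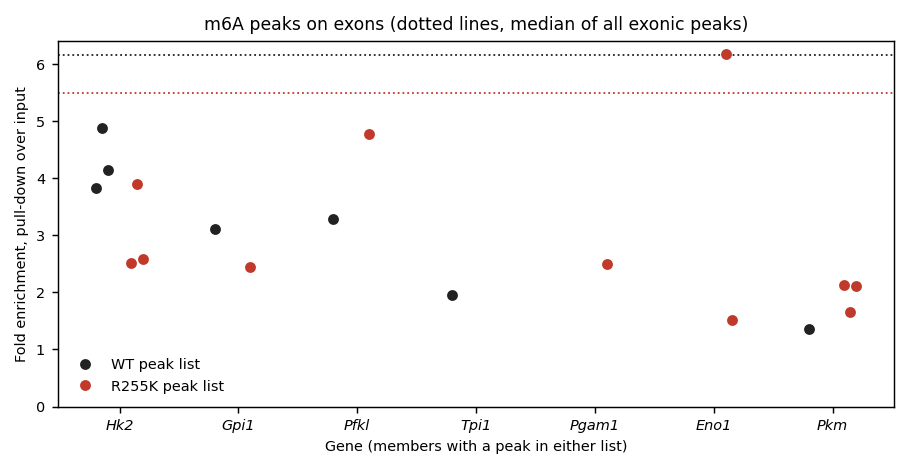
Fold enrichment of pull-down over input (y axis) of each exonic m6A peak on the 7 members with a peak (x axis), from the WT (black) and R255K (red) lists, 1 pooled list per genotype, with dotted lines for the median of all exonic peaks. The points lie between 1.36 and 6.17, and 1 of 18, on *Eno1*, is above the median of its list.

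The rest of the pathway was examined through a list of 34 further genes, of which 23 had a mean of at least 1 FPKM. From 0 to 8 h in WT cells 2 of the 23 were at least 2-fold higher (6.47% of all genes) and 7 at least 2-fold lower (39.2%), with a median ratio of 1.10. In R255K cells 0 were higher (2.24%) and 2 were lower (19.3%), with a median of 1.17. The share that was lower is thus no larger than over all genes, and the genes are given to show which they are. The 2 that were higher in WT cells encode enzymes of the lower pathway, *Pgk1* (phosphoglycerate kinase), with 617, 950 and 1333 CPM, and *Ldhb* (a lactate dehydrogenase subunit), with 176, 282 and 388 CPM. Their R255K ratios were 1.35 and 1.40.

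Of the 7 that were lower in WT cells, 4 are carriers of glucose or lactate and 2 encode regulators of fructose phosphates. *Slc2a1*, a glucose transporter, held 6277, 1205 and 293 counts in the WT libraries of 0, 4 and 8 h, and 7268, 5030 and 4223 in the R255K libraries. Its ratio of 8 h over 0 h was 0.0589 for WT and 0.483 for R255K cells. The quotient of the ratios, 8.20, exceeded that of *Hk2*. The second glucose transporter, *Slc2a3*, had ratios of 0.439 and 0.834. The lactate carriers *Slc16a1* (0.338 and 0.896) and *Slc16a3* (0.239 and 0.752) moved likewise. *Pfkfb3*, which sets the level of fructose 2,6-bisphosphate, had 0.219 and 0.684, *Tigar*, a phosphatase acting on fructose phosphates, had 0.0855 and 0.425, and the ADP-dependent glucokinase *Adpgk* had 0.462 and 0.818. So all 7 ratios were closer to 1 in R255K cells, as for *Hk2*. The 7 genes were picked by their WT ratio, which favours that outcome. Of all 23 genes, 5 had a quotient of the ratios of at least 2, against 30.5% of all genes. The 2 that were at least 2-fold lower in R255K cells were *Slc2a1* and *Tigar*.

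**Figure D5:**
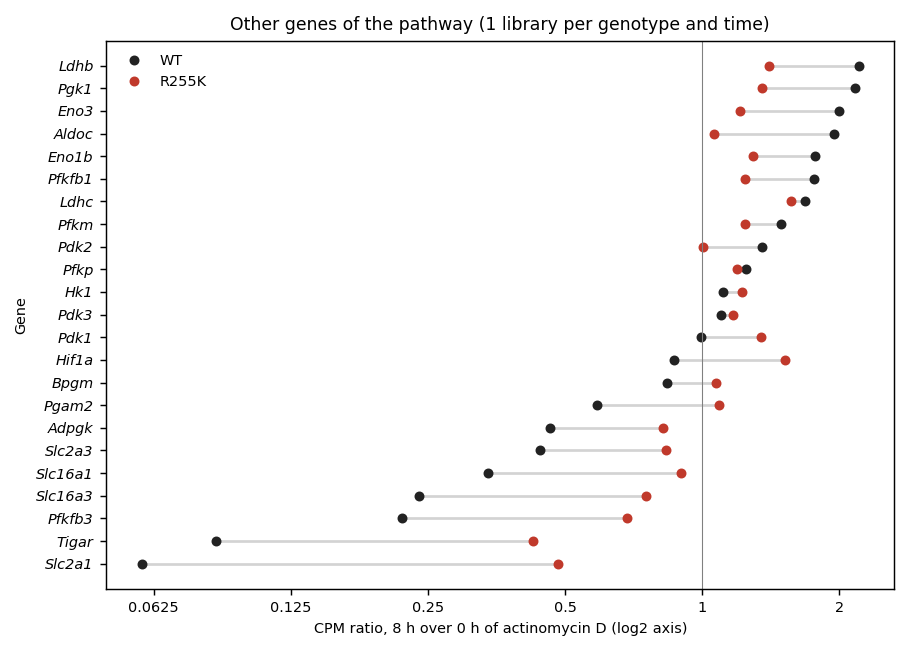
CPM ratio of 8 h over 0 h (x axis, log2 scale) of the 23 other pathway genes above 1 FPKM (y axis, ordered by the WT ratio) in WT (black) and R255K (red) cells, 1 library per genotype and time. The transporters, *Tigar*, *Pfkfb3* and *Adpgk* lie lowest in WT cells, from 0.0589 for *Slc2a1*, and nearer 1 in R255K cells.

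At 0 h, against WT cells, 3 of the 23 were at least 2-fold higher in R255K cells (9.85% of all genes) and 2 at least 2-fold lower (8.85%). *Slc16a3* had 45.8 CPM in WT and 230.2 CPM in R255K cells. *Ldhc*, a lactate dehydrogenase known from testis, had 3 and 59 counts, and *Pgam2*, the muscle form of the mutase, had 30 and 58. *Ldhc* had at most 0.183 FPKM in WT libraries and at least 2.39 FPKM in R255K libraries. It passed the filter of 1 FPKM only through R255K cells, which favoured its being counted as higher there at each time. *Pdk1*, which inhibits pyruvate dehydrogenase, was at 0.481 times the WT level, and the hypoxia regulator *Hif1a* at 0.488 times. At 4 h 5 were at least 2-fold higher (19.7% of all genes), *Ldhc*, *Slc2a1*, *Slc16a1*, *Slc16a3* and *Pfkfb3*, and at 8 h 9 (33.3%), with *Adpgk*, *Pgam2*, *Bpgm* (bisphosphoglycerate mutase) and *Tigar* besides. None was at least 2-fold lower at 4 or 8 h.

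Peaks were present on 9 of these 23 genes in the WT list (55.8% of all genes) and on 8 in the R255K list (43.0%). Of their 12 WT peaks, 9 were overlapped by an R255K peak (52.1% of all exonic WT peaks). *Slc16a3* had the strongest, with a fold enrichment of 14.5 in WT and 7.23 in R255K cells, and *Tigar* had 8.34 and 10.1. *Slc2a1* had 3.97 and 3.02, near the values of *Hk2*. *Pgk1* and *Ldhb* had no peak in either list, like *Gapdh*, *Aldoa* and *Ldha* among the members.

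Other genes in common use as references serve as a scale for *Gapdh*. From 0 to 8 h *B2m*, a subunit of class I histocompatibility molecules, had a ratio of 2.05 in WT and 1.35 in R255K cells. *Tbp*, the TATA-binding protein, had 0.108 and 0.233, and *Actb*, the cytoplasmic actin, had 1.32 and 1.28. The transferrin receptor *Tfrc* had 0.680 and 2.28, and at 0 h R255K cells held 0.338 times its WT level. *Gusb*, a lysosomal glucuronidase, had 1.42 and 1.45, and R255K cells held 2.18 times its WT level at 0 h. The isomerase *Ppia* had 1.20 and 0.970, and the ribosomal protein gene *Rpl13a* had 1.20 and 1.03. *Ywhaz*, a 14-3-3 protein, had 1.30 and 1.37, and *Sdha*, a subunit of succinate dehydrogenase, had 1.85 and 1.34. Against these, *Gapdh* had 2.99 and 4.71 from 0 to 8 h. None of these 9 genes was at least 2-fold lower at 4 h and then at least 2-fold higher at 8 h in WT cells. That pattern was taken from *Gapdh* itself.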

How the data were processed

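RNA of the actinomycin D time course and of MeRIP-seq came from WT and METTL14 R255K E14Tg2a cells. The authors discarded rRNA reads with Bowtie2 2.2.6 and used HISAT2 for alignment to mm10. They kept unique reads of high mapping quality with Picard 2.16.0 and SAMtools 0.1.09, without saying what unique stands for. The deposited counts are whole numbers per gene, not normalized. The counter and its annotation are not given in the sources used here. The authors called peaks with MACS2, and the deposited fold enrichment (a ratio) and −log10 q are those of 1 list per genotype. How libraries were combined for it is not given in the sources used here.

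From the counts, CPM used the summed counts of all genes (13812160 to 18813640), and FPKM the exon length in the tables. Counts under 3 were set to 3 in ratios. Intervals of counts are exact Poisson and those of ratios exact Clopper-Pearson, at 95%. Quotients of ratios carry intervals from the counting errors of 4 counts on the log scale. With 1 library per genotype and time no test was made, and past 2-fold stands for a call. Copies were found with blastn 2.17.0 on GRCm38 (mm10) from the GENCODE vM21 transcript with the longest coding sequence, and exact windows on both strands. Peaks were assigned to exons of the count tables by at least 1 bp with bedtools 2.31.1, and summits to regions by vM21. TMM factors came from edgeR 4.0.16 and size factors from DESeq2 1.42.0, in R 4.3.3. Python 3.11.15 was used with numpy 2.4.6, pandas 2.3.3, scipy 1.17.1, statsmodels 0.14.6, pysam 0.24.0 and matplotlib 3.10.9. The ratio and half-life functions were tested on simulated data.

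The members and all lists were chosen with earlier results of these data known. All 10 members are named. Of the 34 other pathway genes, those above 1 FPKM and past 2-fold in any comparison are named, with the 5 genes most correlated with *Gapdh* and the copy with the most counts per member. *Actb*, 8 other reference genes and marker lists were added as a scale, and some items of the reference list are not reported here. The sums with copies and the GC trend (lowess span 0.3, GC content over the exons of 52459 genes) were chosen after the data were seen.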

Additional observations from a re-analysis of the deposited data

Results flagged for a closer look

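At 4 h *Gapdh* lay below its 0 h level in WT cells and above it in R255K cells, past 2-fold in WT and just under 2-fold in R255K cells. Its CPM ratio of 4 h over 0 h was 0.283 in WT cells, from 995 and 242 counts, and 2.00 in R255K cells, from 331 and 787 counts. Each genotype has 1 library per time, so the difference between them was not tested. With its annotated copies added, the ratios were 1.20 and 1.25.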

How the results depend on the processing

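Between times of a genotype, 9 member ratios past 2-fold became 17 with TMM and 17 with DESeq2 factors, 20 at 1.5-fold and 4 when each member was summed with its annotated copies. Between genotypes, 3 became 7 with TMM, 9 with DESeq2 factors, 7 at 1.5-fold and 1 with copies. Leaving out mitochondrial genes, or log2 of CPM plus 1, left 9 and 3. With copies, *Gapdh* turned from 0.283 to 1.20 (WT, 0 to 4 h) and from 2.62 to 0.925 (R255K over WT at 4 h). Its WT rate of loss turned from 0.0894 to −0.137 per hour from 0 and 8 h alone. Beside the summed counts of the other 9, its WT ratio from 0 to 8 h was 1.83 times as large, against 1.67 beside their median. Peaks of fold enrichment of at least 4 numbered 2 in WT, from 7, and 2 in R255K cells, from 11. Over the whole lists they numbered 14318, from 17693, and 6847, from 9437. Causes were not tested, other than that stricter thresholds admit fewer items.

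TMM factors moved the log2 median of all genes from −0.45 to 0.08 for WT 8 h over 0 h and from 0.45 to 0.02 for R255K over WT at 8 h. With DESeq2 factors the shares of genes at least 2-fold higher and lower were 4.19% and 20.1% (WT, 0 to 4 h), 2.70% and 9.53% (WT, 4 to 8 h), 30.7% and 28.8% (WT, 0 to 8 h), 4.23% and 15.6% (R255K, 0 to 8 h), 13.9% and 6.92% (R255K over WT at 4 h) and 18.9% and 17.7% (at 8 h). Of 90 member ratios, 3 changed direction with TMM and 4 with DESeq2 factors, each a ratio of *Hk2*, *Aldoa* or *Tpi1* short of 2-fold. Relative to the GC trend no ratio past 2-fold changed direction. No replicate could be left out and no paired analysis was possible because each genotype and time has 1 library.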

Other observations

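Some annotated copies of members carried m6A peaks, among them copies of *Gapdh* and *Ldha*, which had none themselves. The WT list held 6 peaks on 6 of the 323 annotated copies of *Gapdh*, with a fold enrichment between 4.72 and 8.22. The R255K list held none, and this difference was not tested. Over all exonic WT peaks, 52.1% were overlapped by an R255K peak, and the whole lists held 17693 WT and 9437 R255K peaks. The strongest of the 6 peaks on copies of *Gapdh* lay on *Gm8756*. None of the 6 copies had more than 28 counts in a library of the time course, and *Gm8079* had 0 in all. A copy of *Ldha*, *Gm7997*, had a WT peak of 7.45 and at most 10 counts in a library. *Eno1b* had 2 peaks in the R255K list, of 2.94 and 2.48, and none in the WT list, as *Eno1* itself had 2 and none. Another copy of *Eno1*, *Gm11218*, had a WT peak of 4.79 and at most 6 counts in a library. Reads from near-identical genes cannot be told apart over shared sequence. These copies were picked after their peaks were seen.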
